A study of Mus musculus with 2 samples.

Results

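Contractile myofibroblasts were taken from the heart of 1 infarcted mouse as fibroblasts with a high share of the transcripts of Acta2 (smooth muscle alpha-actin) and Tagln (transgelin). A cell was a member if at most 25% of its unique molecular identifiers (UMIs, each a counted RNA molecule) came from mitochondrial genes. At least 2% had to come from Col1a1, Col1a2 and Col3a1 together, and at least 0.4% from Acta2 and Tagln together. At most 2 UMIs were allowed from each of 3 sets, namely Mki67, Top2a, Cenpf, Ube2c, Cdc20 and Birc5 (cycling cells), Wt1, Lrrn4 and Cxadr (epicardium), and Rgs5, Vtn and Kcnj8 (pericytes). The members were thus chosen by measured values of these genes. The rule found 530 of the 8555 barcodes of the infarct library, or 6.20% (exact Clopper-Pearson 95% interval 5.69 to 6.73, counting error only). The 2 libraries of the series hold 14892 barcodes together. Their collagen, Acta2 and Tagln levels describe the choice and are no finding.

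Both libraries came from male wild-type C57BL6/J mice of 8 to 10 weeks and were made by Drop-seq, which tags RNA in droplets with a cell barcode and a UMI. The MI library held 1 heart, taken 14 days after the left anterior descending artery had been tied to cause an infarct. The sham library held 4 pooled hearts from mice operated on without ligation, also taken at 14 days. Each condition is 1 library, so no test compares them, and library, heart and ligation cannot be told apart. No p-value is given, and each interval covers counting error only.

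Myofibroblasts are fibroblasts that assemble actin stress fibres and pull on the matrix they secrete. In the heart they arise from resident fibroblasts after injury and build the collagen scar that replaces lost muscle. Transforming growth factor beta, stiffness of the tissue and the transcription factors SRF, MRTF and YAP are known to drive their contractile genes, many of which carry a CArG box, the short DNA motif that SRF binds.

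CArG boxes of contractile genes are shown because the cells are defined by contractile transcripts. Promoters were taken from RefSeq on build GRCm38.p6, from 250 bases before to 50 bases after each start, and were searched for the CArG box (2 C, 6 bases that are A or T, 2 G, which reads alike on both strands). Each line gives 30 bases, 5′ to 3′ along the gene, with the box in capitals.
Myl9, first box: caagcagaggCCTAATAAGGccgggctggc
Myl6: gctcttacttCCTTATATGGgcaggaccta
Cnn2: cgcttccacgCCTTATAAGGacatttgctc
Fbxl22: aaaagaaatcCCTTTTAAGGaaaacttgta
Acta2, first near match: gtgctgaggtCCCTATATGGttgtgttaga
Acta2, second near match: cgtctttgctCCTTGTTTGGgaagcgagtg

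The Myl9 window lies at chr2:156775293-156775322 on the plus strand and its box begins at -161 from the RefSeq start. The Myl6 window lies at chr10:128493040-128493069 on the minus strand, with its box at -50. The Cnn2 window lies at chr10:79988534-79988563 on the plus strand, with its box at -56. These 3 genes encode a regulatory myosin light chain, an essential myosin light chain and a calponin. Fbxl22, an F-box protein of muscle, has its window at chr9:66514796-66514825 on the minus strand and its box at -222. The Acta2 windows lie on the minus strand at chr19:34255438-34255467 and chr19:34255388-34255417, with boxes at -84 and -34, each with 1 inner base that is C or G. In GENCODE vM21 the Acta2 transcript begins upstream of the RefSeq start, and both windows lie whole within its first exon, annotated as UTR. The Myl6 window lies whole in an exon of a Myl6 transcript and touches no annotated UTR, and the other windows printed touch no exon of their gene.

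Both boxes of Myl9 stand in the stretch ahead of its first annotated exon, chr2:156775214-156775419 on the plus strand, and the downstream box has 1 inner base that is G.
Myl9 upstream: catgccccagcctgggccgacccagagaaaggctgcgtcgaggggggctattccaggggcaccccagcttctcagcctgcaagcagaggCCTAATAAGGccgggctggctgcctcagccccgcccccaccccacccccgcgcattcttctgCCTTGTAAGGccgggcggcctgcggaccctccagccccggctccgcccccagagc

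The exact box was present at 1 or more starts of 488 of all 27025 genes in the table (1.81%) and of 3 of the 19 contractile genes in it (15.8%), which were Cnn2, Myl9 and Myl6. With 1 inner base allowed to be C or G, it was present in 3050 genes (11.3%) and in 4 of the 19 (21.1%), which added Acta2. Counted by promoter, 535 of 32851 windows of 300 bases held the exact box (1.63%). None of the 9 injury matrix genes and none of the 7 smooth muscle defining genes with a promoter in the table held either form. Of 14 collagen chains, 0 held the exact box and 2 (14.3%) the looser form, Col1a2 and Col6a3. Of 12 homeostatic genes, 0 held the exact box and 1 (8.33%) the looser form, Gsn. The 12 highest and 12 lowest genes named below within the infarct library were chosen from these data. Of the 9 highest with a promoter in the table, 2 (22.2%) held the exact box, Fbxl22 and Myl9. Of the 7 lowest with a promoter, 0 held the exact box and 1 (14.3%) the looser form, Apoe. Tagln, Actg2 and Myh11 had no promoter in the table. A match is a description of the letters in the window.

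Along the rule, 8441 barcodes of the MI library passed the mitochondrial limit, 3041 of these passed the collagen limit and 766 of these the limit on Acta2 and Tagln. The limits on cycling, epicardial and pericyte genes then removed 194, 17 and 25 cells. In the sham library 27 of 6337 barcodes passed the mitochondrial and collagen limits, and 0 of these reached the limit on Acta2 and Tagln. For this 0 of 6337, a floor of 3 barcodes is a share of 0.0473%, which is not an exact upper limit.

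The members were deep cells, with a median of 6282.5 UMIs (range 676 to 28315) and 2334.5 genes. Acta2 and Tagln together made up between 0.4003% and 2.01% of their UMIs, with a median of 0.613%. The 3 collagens made up between 2.04% and 11.7%, with a median of 4.83%. Mitochondrial genes made up a median of 4.67% and ribosomal protein genes 11.7%. Scrublet called 3 of the 530 members doublets, of 147 called in the MI library.

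The limit on Acta2 and Tagln cut a continuous range. Of the 2209 infarct fibroblasts that met every other clause, 530 (23.99%, exact interval 22.2 to 25.8) lay at or above it, and the other 1679 served as low-contractile infarct fibroblasts. Within 0.1 percentage points of the limit lay 133 members above and 203 cells below. The member nearest to it had 0.4003% and the next 0.4005%, and the nearest cells outside had 0.3999% and 0.3981%. The number of cells fell in each successive 0.1-point bin up to the limit and beyond it to 1.1%, with no gap at the limit.

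**Figure D1:**
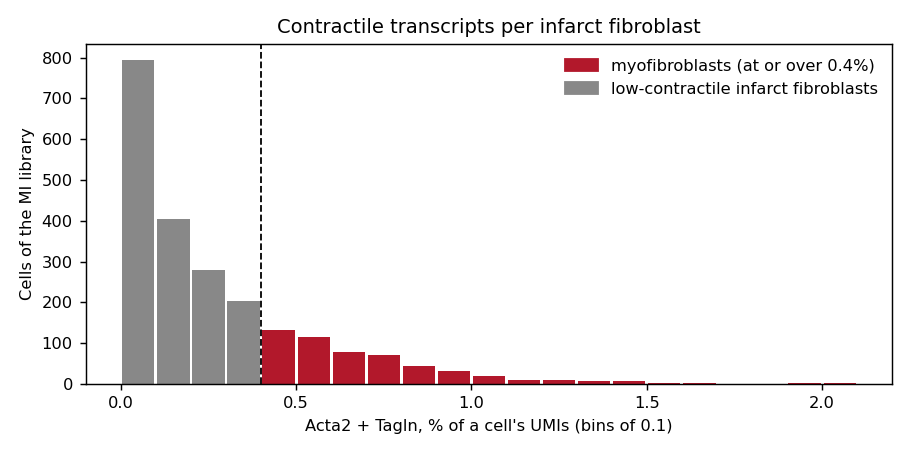
Number of infarct fibroblasts of the MI library (y axis) by the percent of each cell's UMIs from Acta2 and Tagln (x axis, bins of 0.1 points), with the limit of 0.4% as a dashed line. The 530 members (red) are the upper end of a distribution that declines without a gap, beside 1679 low-contractile cells (grey).

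Of 5 genes that mark such cells, the rule fixed Acta2, Tagln and Col1a1, so the label could be checked on Postn and Cthrc1 only. To compare cells of unequal depth, all cells were drawn down to 500 UMIs, a depth every cell reached. Lymphocytes of the MI library (69 cells, median 1128 UMIs) served as the background of free RNA. Postn (periostin, a matricellular protein of injured heart) was then seen in 69.2% of members, 66.5% of low-contractile cells and 11.6% of lymphocytes (unthinned 94.3%, 91.5% and 29.0%). Cthrc1, a secreted protein of scar-forming fibroblasts, was seen in 45.5%, 37.8% and 1.45% (unthinned 95.1%, 84.8% and 8.70%). Both were above the lymphocyte background in members, and also in infarct fibroblasts that were low in Acta2 and Tagln. As a description of the choice, Acta2 was seen in 88.7% of members after thinning, Tagln in 65.7% and Col1a1 in 96.98%.

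Levels are given as counts per 1000000 UMIs of the group (CPM), summed over its cells. A gene was compared if it had at least 50 UMIs over both groups and was called by size alone, at 2-fold or more. Cells are not replicates, and the split on Acta2 and Tagln is the contrast the rule used, so the comparison within the MI library is a description. Of 10559 genes, 82 (0.777%) were at least 2-fold higher in members and 460 (4.36%) lower by as much. The median log2 ratio of all genes was -0.05. Of the low-contractile cells 63 were called doublets, and without doublets in either group 84 genes were higher and 374 lower.

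The contractile apparatus was higher across its whole list. Of 20 genes compared besides Acta2 and Tagln, 8 were at least 2-fold higher and 0 lower, all 20 had a log2 ratio above 0, and the median was 0.90. Actg2, the gamma actin of visceral smooth muscle, was at 313 CPM in members (Poisson 95% interval 296 to 332) and 29.4 CPM in low-contractile cells (25.9 to 33.3), a log2 ratio of 3.41. Cnn1, calponin of smooth muscle, was at 209 CPM against 23.1 CPM, a log2 ratio of 3.18 (exact interval 2.95 to 3.41). Their intervals in the 2 groups lay far apart, yet under 50% of members held a UMI of either, with 42.8% for Actg2 and 48.9% for Cnn1.

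The tropomyosins and myosin light chains were detected in nearly every member. Tpm1 was at 3328 CPM against 1107 CPM, a log2 ratio of 1.59, with a UMI in 97.2% of members. Tpm2 was at 1806 CPM against 566 CPM, a log2 ratio of 1.67. Myl9 was at 770.3 CPM against 215 CPM, a log2 ratio of 1.84. Tropomyosins wrap actin filaments and Myl9 regulates myosin. Csrp1, Cnn2 and Flna passed the 2-fold size with log2 ratios of 1.58, 1.14 and 1.03. Below it were Myl6 (0.80), Actn1 (0.64), Cald1 (0.60), the nonmuscle myosin heavy chains Myh9 (0.61) and Myh10 (0.61), and Csrp2 (0.40).

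The ranking rule also named genes outside the contractile list. Ankrd1, a target of YAP and a cardiac stress gene, was at 384 CPM against 69.0 CPM, a log2 ratio of 2.48, and had a UMI in 41.7% of members. Fbxl22 was at 63.2 CPM against 8.32 CPM, a log2 ratio of 2.92. Sfn (2.39), an adaptor protein of the 14-3-3 family, and Sh3bgr (2.35) were found in under 10% of members, at 9.06% and 6.98%. Srf itself was at 27.0 CPM against 15.1 CPM, a log2 ratio of 0.84 (0.45 to 1.23). Of 13 regulators and targets of SRF, MRTF and YAP, Ankrd1 alone passed 2-fold, and the targets Ctgf (0.18) and Cyr61 (0.18) were nearly level.

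**Figure D2:**
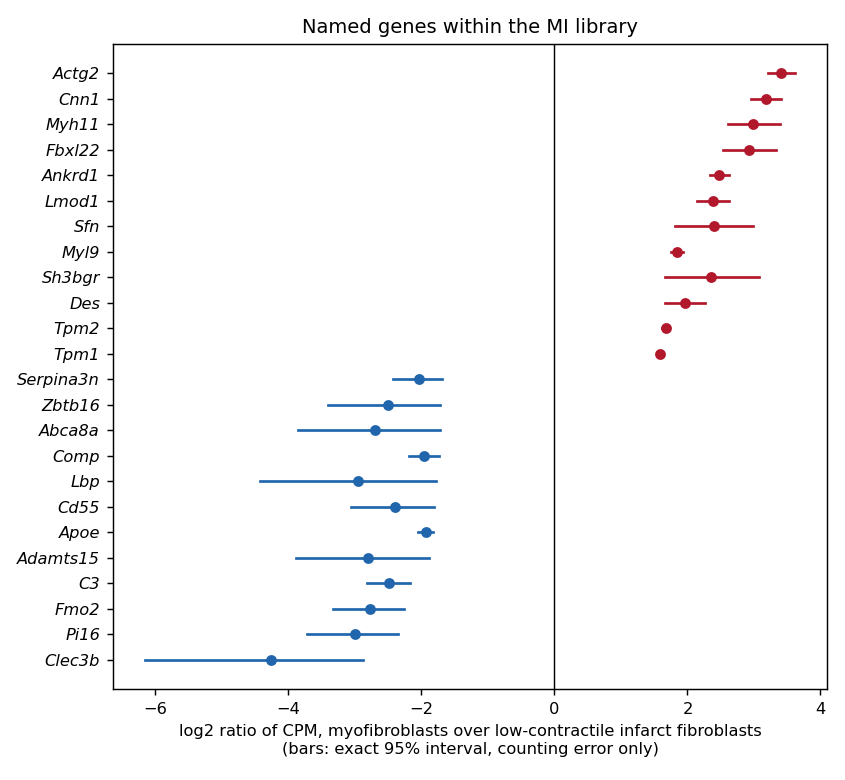
Log2 ratio of CPM, members over low-contractile infarct fibroblasts (x axis), for the 12 highest and 12 lowest genes by the ranking rule (y axis), as points with exact 95% intervals that cover counting error only. Actg2 and Cnn1 lie above 3 and Clec3b near -4, with wide intervals for genes of few UMIs.

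Genes that define smooth muscle were in part higher. Of 5 compared, 3 were at least 2-fold higher (median 1.96), namely Myh11 (2.99), Lmod1 (2.39) and Des (1.96), while Smtn (0.68) and Synpo2 (0.02) did not pass. Smtn had a UMI in 40.9% of members, Lmod1 in 34.2% and Des in 22.1%. Myh11, the smooth muscle myosin heavy chain, had 250 UMIs in 73 of 530 members, and the 53 members with most held 92% of them. The 43 members with 2 or more Myh11 UMIs, a group formed after its values were seen, held 220 of the 250 and had a median of 9946 UMIs, against 5974 in the other 487. In those 43 cells Cnn1 was at 518 CPM and Actg2 at 973 CPM, against 165 and 221 CPM in the others. Col1a1, part of the rule, was at 8940 CPM in those 43 cells and 8954 CPM in the others. Postn was at 3147 CPM in those 43 cells against 3489 CPM in the others, and Cthrc1 at 1172 against 1381 CPM. Counting intervals leave out the spread between cells, and its part in these differences was not tested. Wisp1 was at 222 against 270 CPM, with intervals that overlap, and Comp at 17.4 against 52.8 CPM, on 8 UMIs in the 43 cells. With cells of 2 or more Myh11 UMIs left out of both groups, an alternative added after the data were seen, the log2 ratio was 3.03 for Actg2, 2.92 for Cnn1, 2.06 for Lmod1 and 1.36 for Des. Myh11 itself, which chose the cells left out, was then at 1.18.

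Markers of mural cells, which wrap vessels, were mixed. The limit on Rgs5, Vtn and Kcnj8 keeps those genes low in members. Of 3 other pericyte genes compared, Mcam (log2 ratio 1.47) and Cspg4 (1.06) were at least 2-fold higher than in low-contractile cells and Notch3 was at -0.87. Mural cells of the MI library passed the mitochondrial limit and had under 2% of UMIs from the 3 collagens. They also had at least 3 UMIs and 0.5% of UMIs from Rgs5, Vtn, Kcnj8, Notch3 and Myh11 together. In these 41 cells, too few to compare by CPM, the share of cells with a UMI is given. Higd1b was seen in 68.3% of mural cells and 1.13% of members, and Casq2 in 46.3% and 0.943%. Notch3, seen in 63.4% and 12.1%, helped choose the mural cells and describes that choice. The fibroblast cadherin Cdh11 was seen in 2.44% of mural cells and 49.2% of members, Pdgfra in 0% and 20.2%, and Cthrc1 in 31.7% and 95.1%. Postn, at 95.1% and 94.3%, and Myl9, at 90.2% and 90.6%, were at like shares in both.

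Adhesion genes tie the actin fibres to the matrix, and 4 of 22 were at least 2-fold higher (median 0.42). They include Tes, a zyxin partner, at 47.4 against 20.03 CPM (log2 ratio 1.24) and Lpp at 298 against 147 CPM (1.03). Vinculin (Vcl, 0.92) and integrin-linked kinase (Ilk, 0.77) fell short of the size.

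Collagen chains and most injury matrix genes did not follow the contractile genes at the 2-fold size. Col1a1 was at 8952 CPM in members and 8874 CPM in low-contractile cells, though it was part of the rule. Postn was at 3447 CPM (3388 to 3507) and 3403 CPM (3364 to 3443), a log2 ratio of 0.02 (-0.01 to 0.05). Per cell, Postn had a median of 2779 CPM and ran from 0 to 15364 CPM in members. Cthrc1 was at 1355 CPM against 1095 CPM, a log2 ratio of 0.31. Fibronectin (Fn1, -0.06), lysyl oxidase (Lox, -0.03) and osteonectin (Sparc, -0.05) were nearly level. Of 15 collagen chains beyond the rule, 0 passed 2-fold either way (median -0.05), the widest being Col14a1 (-0.71) and Col12a1 (0.58).

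A few secreted proteins stood above that level matrix. Tenascin C (Tnc), a matrix protein of wounds, was at 488 against 215 CPM, a log2 ratio of 1.19, and alone of the 15 injury matrix genes passed 2-fold. Inhba, which encodes an activin subunit, was at 237 against 104 CPM, a log2 ratio of 1.195. Thbs1 (0.79), Timp1 (0.72), the collagen crosslinker Loxl2 (0.68) and the collagen chaperone Serpinh1 (0.54) were below that size. The transforming growth factor ligands and receptors were not higher as a set, with 1 of 14 at 2-fold (Inhba) and Tgfb1 at -0.04, Tgfb2 at 0.49, Tgfb3 at -0.22 and Tgfbr2 at -0.65.

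No gene compared from the lists of the secretory pathway and of glycolysis and hypoxia differed by 2-fold. Of 20 genes of the secretory pathway, 0 passed 2-fold and 18 had a ratio above 0 (median 0.34), with Sec61b at 0.51 and Hsp90b1 at 0.47. Of 16 genes of glycolysis and hypoxia, 0 passed and 13 lay above 0 (median 0.45), with Ldha at 361 against 232 CPM (0.64) and Eno1 at 212 against 142 CPM (0.58). Against these medians, that of all genes compared was -0.05.

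Genes of resting fibroblasts were lower. Of 15 homeostatic genes, 11 fell 2-fold or more below low-contractile cells and 0 above (median -1.32). Clec3b, which encodes tetranectin, had 4 UMIs in members (1.07 CPM) and 175 in low-contractile cells (20.5 CPM), a log2 ratio of -4.26 (-6.15 to -2.88). Pi16, a marker of adventitial fibroblasts, was at 5.35 against 42.8 CPM, a log2 ratio of -3.00. Cd34 (-1.70), Dpt (-1.32), Tcf21 (-1.24), a transcription factor of cardiac fibroblasts, and Pdgfra (-1.15) were also at least 2-fold lower. Mgp, an inhibitor of calcification, was at 2225 against 5117 CPM (-1.2015). Cd248 (0.35) was the only one of the 15 above 0. The 12 lowest genes by the ranking rule also held Fmo2, a monooxygenase, at 8.83 against 60.5 CPM (-2.77), the metalloproteinase Adamts15 (-2.80), Cd55, which restrains complement (-2.40), the transporter Abca8a (-2.69) and the transcription factor Zbtb16 (-2.51). Adamts15 and Abca8a rest on 10 and 9 UMIs in members.

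Complement genes were lower as well. The 6 complement genes compared were each at least 2-fold lower (median -1.43), among them C3 at 22.8 against 128 CPM (-2.49) and C4b (-2.28). Apoe was at 185 against 707 CPM (-1.94), Serpina3n at 18.7 against 77.2 CPM (-2.04) and Lbp, which binds bacterial lipopolysaccharide, at 1.61 against 12.4 CPM (-2.95). Of 8 chemokines and interleukins, Cxcl1 (-1.07) was 2-fold lower, 0 were higher and 2 lay above 0. Macrophage genes were lower, with 3 of 4 compared past 2-fold (median -1.40, and -0.65 without called doublets). Summed, the 5 macrophage genes stood at 80.6 CPM in members, 243 CPM in low-contractile cells and 377 CPM in lymphocytes. At least 3 UMIs of them were in 3.21% of members and 5.66% of low-contractile cells. With cells of 3 or more UMIs of Csf1r, Cd68, C1qa and Lyz2 left out of both groups, an alternative added after the data were seen, Apoe was at -1.21, C3 at -2.58 and the complement median at -1.44, the macrophage list had a median of -0.46, and 372 genes were lower.

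Wnt antagonists, proteoglycans and matrifibrocyte genes were also lower. Of 5 secreted Wnt antagonists, 3 were at least 2-fold lower (median -1.10, and -0.30 after thinning to 500 UMIs), with Sfrp2 at 223 against 673 CPM (-1.59), Sfrp1 at 857 against 1833 CPM (-1.10) and Frzb at -1.10, while Dkk2 was at 0.70. Of 9 small proteoglycans, which space collagen fibrils, 3 were at least 2-fold lower and none lay above 0. Prelp was at -2.02 and decorin (Dcn) at 1151 against 2302 CPM. Of 7 genes of matrifibrocytes, the cartilage-like fibroblasts of mature scar, 3 were lower, with Comp at 48.4 against 189 CPM (-1.96) and Angptl7 at 3.21 against 32.2 CPM (-3.33). Sox9 (-0.41) and Acan (0.33), which belong to the same list, did not pass.

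**Figure D3:**
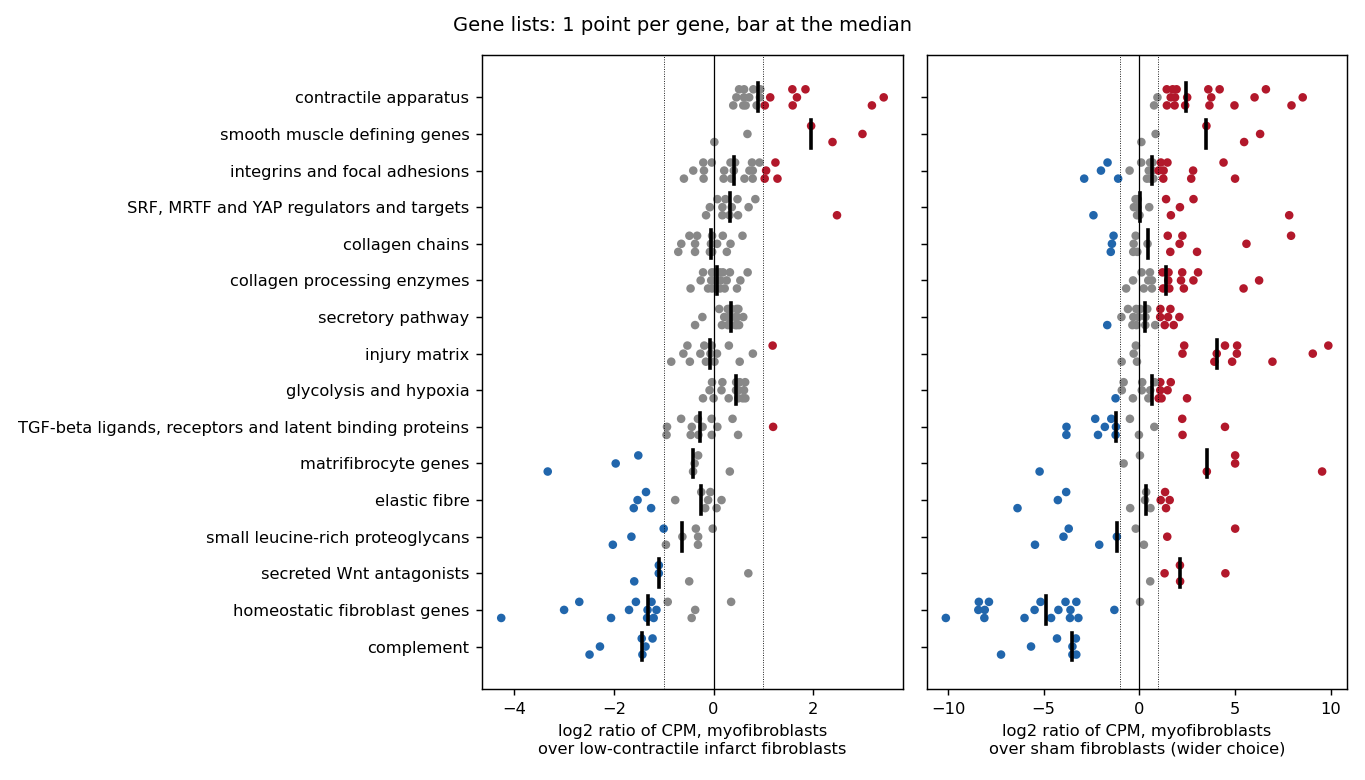
Log2 ratios of CPM for the genes of 16 lists, over low-contractile infarct fibroblasts (left) and over the wider choice of sham fibroblasts (right), 1 point per gene, red at 2-fold or more higher and blue at 2-fold or more lower, with a bar at the median. The contractile list lies wholly above 0 in both panels. The injury matrix list has a median of -0.06 on the left and 4.05 on the right. Against the 27 sham fibroblasts that met the collagen limit, not drawn, its median is 1.39. Dcn, Lum and Dpt helped choose the sham cells on the right.

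Ordered by their share of Acta2 and Tagln, the infarct fibroblasts showed 3 courses. Cnn1 was at 2.63 CPM in the 248 cells without a UMI of either gene, 5.06, 15.9, 51.3 and 139 CPM in the next bins, and 402 CPM in the 133 cells at 0.8% or more. Cthrc1 was at 684 CPM in the cells at 0 and at 1010, 1106, 1278, 1316 and 1462 CPM in the bins after them. Tnc went from 106 CPM in the cells at 0 to 628 CPM at 0.8% or more, and Wisp1 from 123 to 266 CPM. Postn went from 3124 CPM at 0 to 3616 CPM between 0.2% and 0.4%, and was at 3398 and 3583 CPM in the bins after. Col1a1, part of the collagen limit that every one of these cells met, lay between 8584 and 9173 CPM over all 6 bins. Sfrp2 went from 917 CPM at 0 to 103 CPM at 0.8% or more, and Pi16 from 95.9 to 4.02 CPM. Comp was at 259 CPM at 0, 42.3 CPM between 0.4% and 0.8%, and 65.3 CPM above. Median depth moved along the same bins, from 2727.5 UMIs at 0 to 6746 at 0.8% or more, and Lyz2, a macrophage gene, from 223 to 48.2 CPM, and their part in these courses was not tested.

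**Figure D4:**
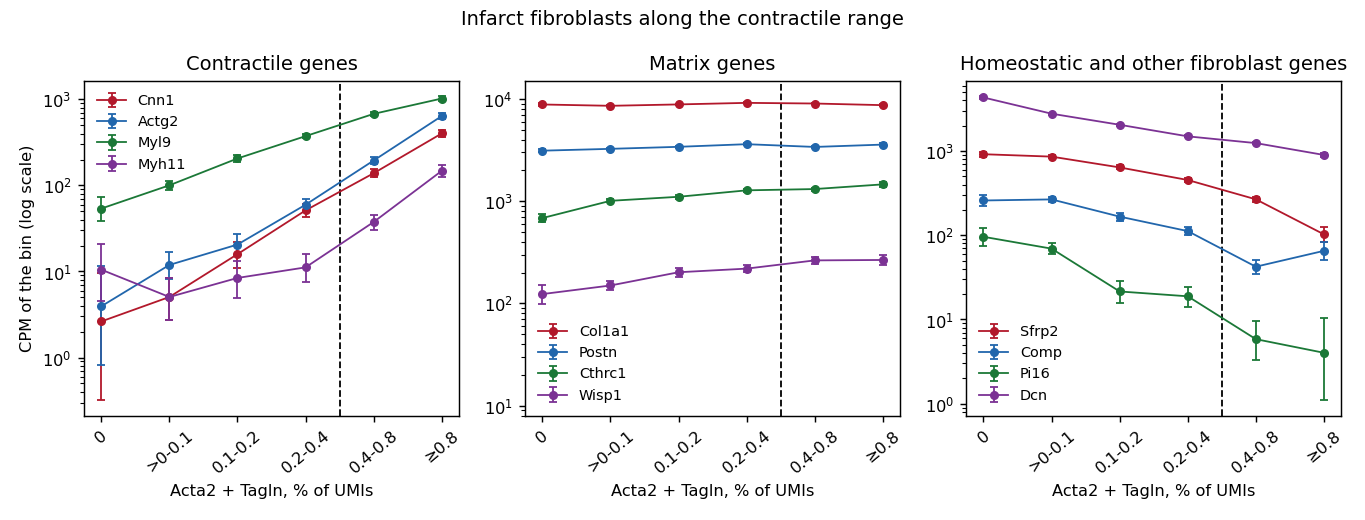
CPM of 12 genes (y axis, log scale) in 6 bins of infarct fibroblasts by their percent of UMIs from Acta2 and Tagln (x axis), with Poisson 95% intervals and the 0.4% limit as a dashed line. Cnn1 spans 2.63 to 402 CPM and Pi16 95.9 to 4.02 CPM. Col1a1, part of the collagen limit that every cell met, stays between 8584 and 9173 CPM.

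Among the members themselves, contractile genes again went with the Acta2 and Tagln share. Over the 530 cells of 1 heart, and among 3780 genes seen in at least 20% of them, Spearman's rank correlation with the share was highest for Tpm1 (0.53), Tpm2 (0.44), Actb (0.40), Lrrc58 (0.39) and Actg2 (0.37). Only 37 genes exceeded 0.2, and these values share each cell's depth, which itself had a correlation of 0.08 with the share. Acta2 with Tagln had a correlation of 0.24. Members were chosen by a lower limit on the sum of these genes, which shapes this value. It therefore does not show how closely Acta2 and Tagln go together in fibroblasts not chosen by them. The correlation was lowest for Mgp (-0.24), Sfrp1 (-0.24), Bicc1 (-0.21), Tcf4 (-0.19) and Sfrp2 (-0.19). Postn (0.04), Cthrc1 (0.06) and Col1a1 (-0.02, part of the rule) were near 0, although Postn and Cthrc1 had a correlation of 0.46 with each other.

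Ordered by the share and split into 3 sets of 177, 177 and 176 cells, Actg2 was at 110 CPM in the lowest, 204 in the middle and 608 in the highest. Myh11 was at 3.41, 49.2 and 143 CPM in the same order. Ankrd1 was at 198 CPM in the lowest range and 691 CPM in the highest, Tnc at 254 and 631 CPM, and Inhba at 139 and 364 CPM. Sfrp1 went the other way, at 1172, 937 and 488 CPM. Median depth was 5944, 6806 and 6571 UMIs, and Wisp1 stood at 260.4 CPM in the lowest and 258 CPM in the highest range.

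Spread between members was widest for genes outside the contractile list. After thinning 516 members to 1000 UMIs each (14 shallower ones left out), the variance of counts over their mean had a median of 1.08 over 790 genes. Genes with a mean under 0.2 UMIs were left out. It was 6.58 for Mgp, 6.55 for the nuclear RNA Malat1, 3.598 for the growth factor Ptn, 2.99 for Postn and 2.98 for Ankrd1. Of contractile genes, Tpm1 ranked 12th with 2.42. Acta2 and Tagln, bounded below by the rule, had 1.59 and 1.46, and Cthrc1 had 1.46. Mean counts differed, with 17.4 UMIs for Malat1 and 0.318 for Ankrd1, and their part in these ratios was not tested.

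Against the sham library, the same clauses without the one on Acta2 and Tagln left 27 fibroblasts with 51851 UMIs in all. Of 6988 genes, 826 (11.8%) were at least 2-fold higher in members and 1254 (17.9%) at least 2-fold lower, and the median of all genes was -0.36. Scaled to that median, the counts were 1332 higher and 786 lower, so the balance of higher and lower genes depends on the scaling. The sham cells had 0 UMIs of 1334 of these genes. Acta2 had 0 UMIs in the 27 cells, Tagln 1, Cthrc1 3 and Postn 68. The matrix protease Mmp14 had 5 (log2 ratio 3.79), while Sparcl1 (-7.07), Fmo2 (-6.45) and Gstm1 (-6.17) were among the 12 lowest. Of 20 contractile genes, 19 were at least 2-fold higher, and of 12 homeostatic genes 11 were at least 2-fold lower.

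A wider choice of sham fibroblasts, made after the data were seen, dropped the collagen clause and took cells with at least 5 UMIs and 0.5% of UMIs from Dcn, Lum and Dpt. It gave 2050 cells with a median of 1519.5 UMIs. Of these, 182 were called doublets, and endothelial genes summed to 299.95 CPM against 17.9 CPM in members, so other cells' RNA is present and its part was not tested. Acta2 stood at 5.88 CPM and 0 of the 2050 cells reached 0.4% for Acta2 and Tagln (exact Clopper-Pearson upper limit 0.180%). Of 9859 genes, 895 (9.08%) were at least 2-fold higher in members and 2358 (23.9%) lower, with a median of -0.32. Scaled to that median, the counts were 1388 and 1603.

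Unlike the comparison within the MI library, this one set both matrix and contractile genes apart. Cthrc1 was at 1355 CPM in members and 2.52 CPM in sham fibroblasts, a log2 ratio of 9.07 (8.14 to 10.20). Wisp1, a matricellular protein induced by Wnt, was at 264 against 0.280 CPM, a log2 ratio of 9.88, resting on 1 sham UMI (7.40 to 15.19). Col11a1, a minor fibrillar collagen, was at 685 against 2.80 CPM (7.93), and Tnc at 488 against 3.92 CPM (6.96). In the injury matrix list, 11 of 15 passed 2-fold upward and 0 downward (median 4.05). Against the 27 sham cells that met the collagen limit, 8 of 15 were higher and 1 lower (median 1.39). The 3 collagens made up a median of 0.636% of UMIs in the wider choice and 4.83% in members. The part of this difference in the matrix ratios was not tested. Postn was at 3447 against 119 CPM (4.85), and 23 sham cells with 5 or more UMIs held 239 of its 426 sham UMIs. Fn1 (5.10) and Lox (5.45) were likewise higher.

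Among contractile genes, 18 of 20 were at least 2-fold higher than in the wider sham choice, with a median of 2.45. Cnn1 had 780 UMIs in members and 0 in sham. Its log2 ratio was 7.96 against a floor of 3 UMIs over the sham group, and at least 7.66 by its exact interval. Actg2 (8.54, on 3 sham UMIs), Ankrd1 (7.84, on 6), Myl9 (6.62) and Tpm2 (6.03) were also among the 12 highest. With them were Ddah1 (8.20, on 5 sham UMIs) and Ddit4l (7.63, on 2). So was P4ha3, a prolyl hydroxylase of collagen with 0 sham UMIs (at least 5.95 by its exact interval). Of 17 transcription factors of fibroblast activation, 4 were at least 2-fold higher and 7 lower (median -0.06). The higher ones were Scx (7.15, on 1 sham UMI), Runx1 (4.43), Sox4 (1.44) and Foxp1 (1.36), and the lower ones included Meox2 (-3.25), Tcf21 (-3.19) and Klf4 (-3.12). Srf was at -0.11.

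Homeostatic genes were lower than in sham in 17 of 18 cases (median -4.89), Cd248 (0.04) being the exception. Clec3b was at 1.07 against 1194 CPM, a log2 ratio of -10.12. Pi16 was at 5.35 against 1249.9 CPM (-7.87) and Gsn, the actin-severing gelsolin, at 241 against 15504 CPM (-6.01). Dcn was at 1151 against 14906 CPM (-3.70), but it helped choose the wider sham cells, so its value describes that choice. The same holds for Dpt, which is among the 18 genes. Inmt had 0 UMIs in members and 780 in sham. Its log2 ratio was -8.09 against a floor of 3 UMIs over the members, and at most -7.79 by its exact interval. Sparcl1, a matricellular protein, was at 9.64 against 1827 CPM (-7.57) and Tnxb, a tenascin of loose connective tissue, at 0.535 against 327 CPM (-9.25, on 2 member UMIs). Enzymes were also among the 12 lowest. The glutathione transferase Gsta3 was at 0.803 against 399 CPM (-8.96, on 3 member UMIs). Hsd11b1, which activates glucocorticoids, was at 1.61 against 443 CPM (-8.11, on 6). The esterase Ces1d had 0 UMIs in members and 613 in sham (at most -7.44 by its exact interval). Abca8a (-8.40, on 9 member UMIs), the scavenger receptor Scara5 (-8.42, on 4), Penk (-9.31, on 1 member UMI) and periplakin (Ppl, at most -6.60) completed the 12 lowest with Clec3b, Pi16 and Inmt. All 7 complement genes compared were lower (median -3.50), and 8 of 12 immediate early genes were lower with 0 higher.

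Comp and Sfrp2 lay between the other groups. Comp was at 48.4 CPM in members, 189 CPM in low-contractile cells and 4.20 CPM in sham fibroblasts. Sfrp2 was at 223, 673 and 51.0 CPM in the same order. Both were lower in members than in their low-contractile neighbours and higher than in sham, and the difference from sham crosses libraries.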

How the data were processed

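Drop-seq libraries were made from 1 infarcted heart (MI) and 4 pooled sham hearts, with 12 cycles of PCR per the labels' protocols. The deposited tables hold whole-number UMI counts per gene and barcode, not normalized, for 24139 genes (MI) and 23970 genes (sham). The build mm10 and the tool Seurat stand in the submitters' processing notes without a version. Which aligner, counter or annotation was used is not given. No deposited barcode has fewer than 500 genes. The MI library held 33275336 UMIs (median 2466 per barcode) and the sham library 11307405 (median 1424). The libraries share 5 barcodes. Barcodes ending in N were kept in the main values (317 in MI, 671 in sham). Scrublet, run through scanpy 1.11.5, called 147 and 334 doublets, which were not removed.

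Cells were chosen by the rule given at the start, and counts were summed over each group and divided by its total (CPM). The ratio of 2 groups has an exact binomial interval and each CPM a Poisson interval, at 95%, for counting error only. PCR copies are collapsed by UMIs, but cells of 1 library are not replicates, so no gene was tested and calls were made by size. A group at 0 was set to a floor of 3 counts over the group. Named genes had 50 or more UMIs over both groups, were seen in 5% or more of the cells of 1 group, and were the 12 highest and 12 lowest by the bound of the ratio nearest to 1, with up to 4 more per gene list. Mitochondrial, ribosomal protein, hemoglobin, sex-linked marker and unnamed predicted genes were left out of that ranking. Other genes the text gives are members of the lists or were chosen after their values were seen. The members and lists were chosen with earlier results of these data known. Promoters came from RefSeq (GRCm38.p6) and exon positions from GENCODE vM21. The code was tested on simulated data and ran in Python 3.11.15 with numpy 2.4.6, scipy 1.17.1 and matplotlib 3.10.9. Alternatives changed the limits of the rule, depth, doublets, barcodes ending in N, scaling, weighting of cells and the minimum UMIs. Some results are not reported here.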

Additional observations from a re-analysis of the deposited data

How the results depend on the processing

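Member cells numbered 530, and 1011 or 133 with the Acta2 and Tagln limit at 0.2% or 0.8%, 367 with collagen at 4% or more, and 487 without cells of 2 or more Myh11 UMIs. Against low-contractile cells, the 82 higher genes became 174 (limit 0.8%), 456 (no minimum of UMIs), 41 (minimum of 200) and 564 (cells thinned to 500 UMIs). The 460 lower genes became 967, 1444, 158 and 1207 in the same order, and 306 with collagen at 4%. The genes compared were 10559 in the main run and at the 0.8% limit, 15218 with no minimum and 6434 with a minimum of 200. They were 10075 after thinning and 9594 with collagen at 4%. Against the 27 sham cells, 6988 genes were compared and 826 were higher. These became 246 of 5557 (collagen 4%, which left 3 sham cells), 1332 of 6988 (median-of-ratios scaling) and 267 of 6292 (thinned). The 1254 lower genes became 394 of 3063 (limit 0.8%), 786 of 6988 (median-of-ratios) and 2810 of 13010 (no minimum). They became 295 of 2808 (minimum of 200) and 2358 of 9859 (wider sham choice). The number of genes compared thus changed with the setting. Where the construction does not show the cause, the cause was not tested. The immediate early list turned from -1.01 to 0.20 on those 3 sham cells, whose 0 counts are set to the floor. Named genes kept their direction against low-contractile cells in 399 of 399 alternative values, 396 of them still at 2-fold, the exceptions being Myh11 (0.12) with the cells it chose left out of the members alone, and Lbp (-0.07) and Adamts15 (-0.9994) after thinning. Against sham they kept it in 344 of 344, with 334 still at 2-fold. List medians kept direction in 429 of 438 and 291 of 351 values, and 13 of 101 and 6 of 74 values of lists at 2-fold fell below it. Among these, the Wnt antagonist median was -0.30 after thinning and between -0.82 and -0.99 under 5 other alternatives. The wider sham choice and the sets of cells left out by Myh11 and macrophage UMIs were added after seeing the data. The comparison with mural cells was not run, since 41 cells were fewer than the 50 required. No paired analysis was possible because each condition is 1 library with no replicate numbers. Precision is limited by 51851 UMIs in the 27 sham cells, where 1334 of the genes compared had 0 UMIs.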
